A study of Penicillium oxalicum with 114 samples.

Results

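POX02968, POX04420 and POX07277 are 3 genes of the filamentous fungus Penicillium oxalicum, each of which is missing in 1 deletion strain of a large RNA-seq series. They were chosen by gene ID, as the deleted genes other than those behind the strains dClrB, dPOX01167 and Ku70, and they are 3 of the 9863 gene IDs in the files. The files and the reference table used here give no product name for any of them (0 of their IDs matched the 9964 genes of that table), so no function is assigned to them below. Their levels are described over media, culture times, lipid additions and the other strains, always without the strain that lacks the gene.

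Fungi such as Penicillium oxalicum secrete cellulases and xylanases when they meet plant cell wall material and hold these genes low on glucose. Transcription factors switch them on, and ClrB is a known activator of cellulase genes in filamentous fungi. Strains without KU70, a protein of end-joining DNA repair, integrate deletion cassettes at the intended place more often and are therefore used as hosts and controls.

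The series holds 114 libraries of mycelium in 33 groups, and it asked which transcripts follow the cellulase and xylanase genes over culture conditions and regulator mutants. The labels name the strains HP7-1 (wild type), Ku70 (deletion of POXKu70, the control), dClrB, dPOX01167, dPOX02968, dPOX04420 and dPOX07277 (deletions of the genes in their names) and OES1167 (more POX01167 from that gene's own promoter). They do not state whether the other mutants lack KU70 too, nor how many clones or cultures stand behind a group, so p-values measure the spread between libraries that may be technical repeats. Ku70, dClrB and dPOX01167 were transferred from glucose medium to AV (Avicel, a microcrystalline cellulose) or WA (wheat bran plus Avicel). They were cultured there for 12, 24 or 36 h, 3 libraries a group, so the hours count from the transfer. For Ku70 and dPOX01167 no AV group at 24 h was analysed here, and 1 Ku70 library of WA at 12 h is labelled 13 h. Ku70 (n = 24), OES1167, dClrB, dPOX02968 and dPOX04420 (n = 3 each) were transferred to an inducing carbon source for 24 h. Ku70 and dPOX07277 were moved from glucose to Avicel for 24 h with oleic acid, linolenic acid or an arachidonic acid oil (n = 3 each). Cultures that were not transferred grew for 72 h: dClrB and dPOX01167 on an inducing carbon source (Avicel by the growth protocols, although that of dPOX01167 speaks of HP7-1 spores), and HP7-1 on glucose (n = 3 each) or on wheat bran alone, with rice straw or with bagasse (n = 1 each).

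The tables come in 3 kinds, and tests were made within a kind except where the 24 Ku70 libraries of both kinds are named as control. The time course has 48 libraries of 5368155 to 8267079 counts, the deep tables comprise 36 libraries of 13277742 to 14731797 counts and the shallow tables comprise 30 libraries of 365937 to 4242956 counts. The 24 Ku70 libraries on the inducing carbon source are split evenly, 12 deep (libraries 11 to 22) and 12 shallow (1F to 10). Some libraries stand apart from their group. In Ku70 induced libraries 8, 9 and 10 the summed level of 9 cellulase genes was 236 to 290 CPM (counts scaled to a library total of 1e+06), against 75918 to 99560 CPM in the other 9 shallow libraries of that group. Of the dPOX01167 cultures that were not transferred, library S had 206 CPM of these genes and libraries F and T had 1959 and 1901 CPM. The chi-square per degree of freedom between S and the others was 76.8 and 81.0, against 3.54 between F and T. In the deep tables Ku70 induced libraries 11, 12 and 13 had 50182 to 53517 CPM of these genes, against 13149 to 43671 CPM in the other 9. In the 6 libraries labelled dPOX01167 on AV, POX01167 itself stood at 1603, 25.3 and 0 CPM at 12 h and at 95.6, 207 and 153 CPM at 36 h, so all but 1 of the 6 hold transcripts of the gene named as deleted. In the 9 WA libraries of dPOX01167 it stood at 0.840 CPM or less, beside 9.45 to 27.3 CPM in Ku70 on WA. In bulk mycelium, fewer cells of a kind and less RNA per cell cannot be told apart.

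In its own deletion strain each gene was at or near 0. POX02968 stood at 0.211 to 0.359 CPM in the 3 dPOX02968 libraries, POX04420 at 0 in the 3 dPOX04420 libraries and POX07277 at 0 in the 9 dPOX07277 libraries. In all libraries that keep the gene, the lowest values were 30.1, 17.3 and 19.4 CPM. The genes with neighbouring IDs were read beside them. In dPOX02968, POX02967 (79.8 ± 3.03 against 114 ± 64.7 CPM in Ku70, SD) and POX02969 (16.1 ± 0.942 against 14.8 ± 5.27 CPM) did not pass the test. In dPOX04420, POX04419 (16.7 ± 2.51 against 25 ± 7.18 CPM) did not pass it, and POX04421 was too low to test, at 0.961 CPM or less in every library. In dPOX07277, POX07276 did not pass on any lipid, and POX07278 was higher on oleic acid by a log2 fold change of 0.97 ± 0.31 (SE, adjusted p = 0.0095), just under the fold minimum. POX07278 held 127, 55.3 and 88.9 CPM there in libraries F, S and T, against 52.1 ± 3.6 CPM in Ku70 (SD). The part of library F, the highest, was not tested.

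All 3 genes were transcribed in every condition. POX02968 spanned 36.6 to 137 CPM in the time course (3.74-fold), 71.0 to 207 CPM in the deep tables (2.91-fold) and 30.1 to 195 CPM in the shallow tables (6.47-fold). POX04420 spanned 17.3 to 138 CPM (7.97-fold), 54.2 to 321 CPM (5.92-fold) and 23.7 to 235 CPM (9.91-fold) in the same order, and POX07277 spanned 26.4 to 135 CPM (5.11-fold), 19.4 to 73.2 CPM (3.77-fold) and 20.2 to 164 CPM (8.14-fold). Per length, in FPKM (fragments scaled by gene length and library size), POX07277 had the lowest median of the 3 in each kind of table. In the time course its median was 18.6 FPKM, against 116 FPKM for POX02968 and 86.2 FPKM for POX04420. In the deep tables it was 10.4 against 164 and 125 FPKM, and in the shallow tables it was 23.5 against 106 and 82.4 FPKM. The coding lengths are 738, 909 and 2394 bases for POX02968, POX04420 and POX07277. In the order of the 16 time-course groups by mean, nearly all neighbours overlapped: 1 of 15 pairs was separated for POX02968 and 0 of 15 for each of the others. Neighbours in such an order have the closest means, and the share over all genes was not computed. The counts therefore say nothing about groups further apart, some of which did not overlap (given below).

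Differences were tested with edgeR's quasi-likelihood test over all genes of a kind of table, and a call needs both a p under 0.05 after Benjamini-Hochberg adjustment and a log2 fold change of 1 or more in either direction (the fold minimum). The 50 comparisons of a pair of groups share control groups and are not independent, and a gene was left untested where the strain lacking it took part. POX04420 was called in 14 of 49 comparisons (6 higher, 8 lower), while 12.7% of all gene tests in those comparisons were calls. POX07277 was called in 9 of 44 (4 higher, 5 lower), with 12.4% of all gene tests called. POX02968 was called in 1 of 49, with 12.6% of all gene tests called. By adjusted p alone the counts were 16 for POX04420 (21.9% of gene tests), 15 for POX07277 (21%) and 8 for POX02968 (21.5%). DESeq2 and limma on log2(FPKM + 1) both also called 13 of the 14, 4 of the 9 and 1 of the 1.

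**Figure D1:**
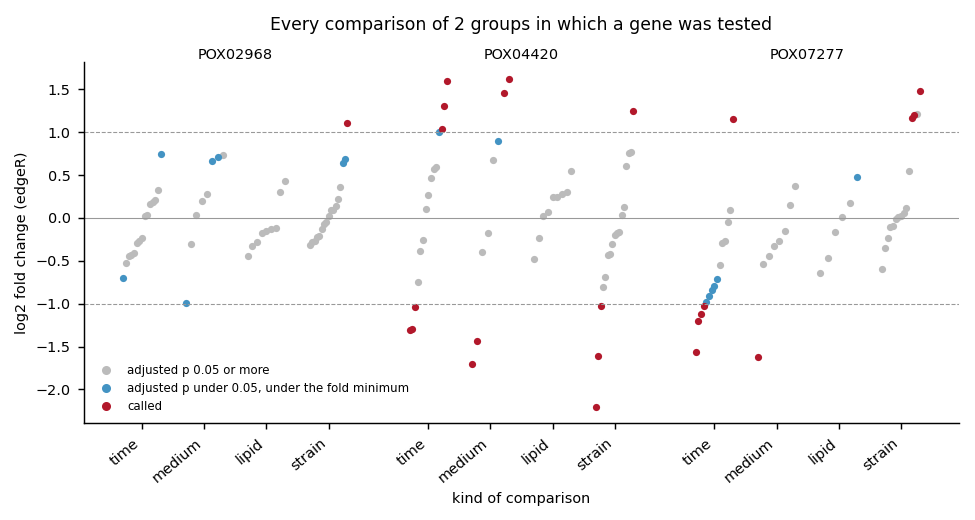
Log2 fold change (vertical axis, edgeR) of each gene in every comparison of a pair of groups in which it was tested, set out by kind of comparison. Red points are called, blue points pass the adjusted p alone and grey points pass neither. POX04420 has 14 red points, POX07277 has 9 and POX02968 has 1.

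POX04420 took opposite courses on the cellulose and the bran medium. In Ku70 on AV it stood at 138, 93.8 and 113 CPM at 12 h and at 44.1, 44.2 and 47.4 CPM at 36 h. All 3 early libraries lay above all 3 late ones, and the fall had a log2 fold change of -1.3 ± 0.29 (SE, adjusted p = 0.0012), in a comparison where 11.3% of genes were called. On WA the same strain held 48.5, 24.7 and 25.9 CPM at 12 h, 90.7, 64.8 and 63.3 CPM at 24 h and 80.7, 74.9 and 64.8 CPM at 36 h. Here the early libraries were the low ones, with no overlap with either later time. POX04420 rose by a log2 fold change of 1.04 ± 0.29 from 12 to 24 h (adjusted p = 0.00558; 15.2% of genes called) and of 1.3 ± 0.29 from 12 to 36 h (adjusted p = 0.000409; 23.9% called). The rise to 24 h was not called when library 30, 31 or 32 was left out (log2 fold changes of 0.86, 0.84 and 0.90). Library 30 is the one labelled 13 h.

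The medium difference in POX04420 thus changed sign with time in Ku70. At 12 h the WA libraries were lower than the AV libraries by a log2 fold change of -1.70 ± 0.29 (33 ± 13.4 against 115 ± 22.3 CPM, SD, n = 3 each; adjusted p = 1.12e-05), with 28.2% of genes called. At 36 h they were higher, 73.5 ± 8.03 against 45.2 ± 1.86 CPM, with no overlap, but the log2 fold change of 0.90 ± 0.29 (adjusted p = 0.0142) missed the fold minimum. The difference between these medium effects was itself called, at a log2 value of 2.61 ± 0.41 (adjusted p = 5.94e-06), as were 28.0% of genes. The same interaction was called for POX02968 in the other direction, at -1.02 ± 0.36 (adjusted p = 0.0235), and not for POX07277 (-0.42 ± 0.33, adjusted p = 0.365). Over all interactions, POX04420 was called in 2 of 12 and POX02968 in 1 of 12 (10.3% of all gene tests called for either), and POX07277 in 2 of 9 (11.2%).

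In dClrB POX04420 moved in the same directions, and none of the 4 interaction tests of dClrB against Ku70 was called by edgeR (0.01 to 0.55, lowest adjusted p = 0.524), DESeq2 or limma, with 0 at an unadjusted p under 0.05. On AV its libraries F, S and T held 121, 50.3 and 85.1 CPM at 12 h, 84.2, 70.8 and 75.1 CPM at 24 h and 17.3, 45.6 and 34.1 CPM at 36 h. Those of 36 h were below all others, and POX04420 fell by 1.3 ± 0.29 on the log2 scale from 12 h (adjusted p = 0.00128; 9.97% of genes called) and by 1.04 ± 0.29 from 24 h (adjusted p = 0.0191; 4.46% called). Without library F of 36 h, the lowest of the 48, the values were -0.98 and -0.72, and neither was called. With only the 6 libraries compared in the fit, adjusted p was 0.187 and 0.257. The fall from 24 h was also not called without library F or T of 24 h (-1.02 each, adjusted p = 0.0666 and 0.0609).

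On WA POX04420 in dClrB stood at 33.1, 26.5 and 29.3 CPM at 12 h, 65.9, 64.0 and 60.7 CPM at 24 h and 97.2, 91.3 and 80.5 CPM at 36 h. Each time was separate from the next. The rise to 24 h, of 0.9997 ± 0.29 (adjusted p = 0.00835), missed the fold minimum and was called with the replicate block (1.00, adjusted p = 0.00507). The rise from 12 to 36 h had a log2 fold change of 1.59 ± 0.29 (adjusted p = 4.26e-05; 20.7% of genes called). WA was below AV at 12 h (-1.44 ± 0.29, adjusted p = 9.56e-05; 32.1% called) and above it at 36 h (1.45 ± 0.29, adjusted p = 0.000146; 20.6% called). At 24 h the media stood close together, at 63.5 ± 2.62 on WA and 76.7 ± 6.81 CPM on AV (-0.18 ± 0.28, adjusted p = 0.722). In none of the 5 conditions shared with Ku70 was POX04420 called between dClrB and Ku70 (log2 fold changes from -0.43 to 0.13, lowest adjusted p = 0.414), with 0 at an unadjusted p under 0.05 and 0 called by DESeq2 or limma.

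**Figure D2:**
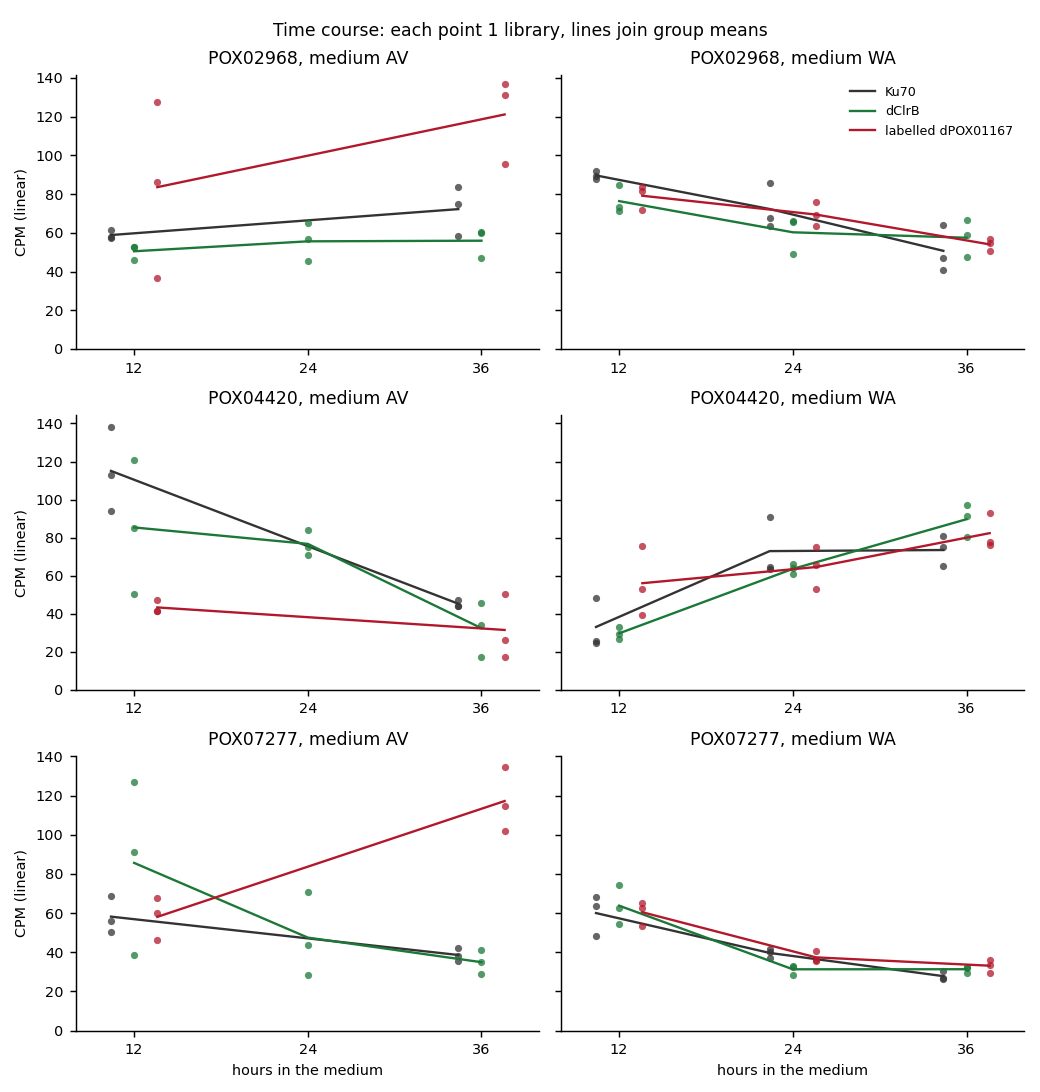
CPM of each gene (linear axis) against hours on AV (left) and WA (right). Points are libraries, lines join group means of 3 libraries, strains are offset sideways, and the Ku70 library labelled 13 h is drawn at 12 h. POX04420 starts high and ends low on AV in Ku70 and dClrB (115 to 45.2 and 85.3 to 32.4 CPM) and does the opposite on WA, and POX07277 is high at 36 h in the AV libraries labelled dPOX01167 (117 CPM).

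In dPOX01167 on WA POX04420 stood at 39.3, 75.6 and 53.2 CPM at 12 h, 53.0, 75.1 and 65.4 CPM at 24 h and 93.2, 77.8 and 76.0 CPM at 36 h. Its early libraries were spread and overlapped those of 24 h. No time step was called, and none of the 3 comparisons with Ku70 on WA was (-0.17 to 0.77, lowest adjusted p = 0.426), with 1 at an unadjusted p under 0.05 (12 h) and 0 called by DESeq2 or limma. In the libraries labelled dPOX01167 on AV, POX04420 held 47.2, 41.2 and 41.4 CPM at 12 h and 50.5, 17.4 and 26.4 CPM at 36 h. All 3 libraries of 12 h lay below Ku70, at a log2 fold change of -1.61 ± 0.29 (adjusted p = 6.64e-05; 16.8% of genes called), and the strain's medium effect at 12 h differed from that of Ku70 by 2.38 ± 0.41 (adjusted p = 0.000101; 14.2% called). At 36 h they were at -0.69 ± 0.29 against Ku70 (adjusted p = 0.0515), and at -1.11 (adjusted p = 0.00361) without library F. At 36 h WA was above these AV libraries by 1.62 ± 0.29 (adjusted p = 2.34e-05; 26.9% called). Since the AV labels and the POX01167 level disagree, these values describe the libraries as labelled, and they cannot be had without them.

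On WA POX07277 was lower at 24 and 36 h than at 12 h by adjusted p in all 3 strains, and past the fold minimum in dClrB. In Ku70 it stood at 68.3, 48 and 63.6 CPM at 12 h, 40, 37.2 and 41.7 CPM at 24 h and 30.3, 26.4 and 26.7 CPM at 36 h. These times did not overlap, and the log2 fold changes from 12 h were -0.71 ± 0.24 at 24 h (adjusted p = 0.0211) and -0.98 ± 0.24 at 36 h (adjusted p = 0.00114), both under the fold minimum. The latter passed it without library 30 (-1.12), 35 (-1.10), 36 (-1.02) or 37 (-1.003), with limma (-1.04) and with library totals (-1.11). In dClrB it fell from 74.5, 54.4 and 62.4 CPM at 12 h to 28.4, 32.4 and 33 CPM at 24 h and 32.1, 32.5 and 29.3 CPM at 36 h. Those of 12 h were above all later ones, by -1.12 ± 0.24 at 24 h (adjusted p = 0.000482; 14.2% of genes called) and -1.02 ± 0.24 at 36 h (adjusted p = 0.000804; 20.7% called). The latter was not called without library F of 12 h (-0.94) or T of 36 h (-0.98). In dPOX01167 the values were 60.4 ± 5.98, 37.4 ± 2.80 and 33.1 ± 3.4 CPM (SD, n = 3 each), with log2 fold changes of -0.80 ± 0.24 and -0.84 ± 0.24 from 12 h (adjusted p = 0.0125 and 0.00685). In none of the 6 strain comparisons on WA was POX07277 called by edgeR (-0.35 to 0.12, lowest adjusted p = 0.862), DESeq2 or limma, with 0 at an unadjusted p under 0.05.

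On AV POX07277 fell in dClrB and stood highest in the libraries labelled dPOX01167. In Ku70 it held 68.6, 50.3 and 55.7 CPM at 12 h and 42.3, 35.5 and 37.9 CPM at 36 h, separate ranges whose difference did not pass the test (-0.55 ± 0.24, adjusted p = 0.106). In dClrB it held 127, 38.5 and 91.2 CPM at 12 h, 28.3, 70.7 and 43.4 CPM at 24 h and 40.9, 28.8 and 35 CPM at 36 h. Libraries S at 12 and 24 h ran against their groups, so the ranges overlap. The value at 24 h differed from 12 h by -0.91 ± 0.24 (adjusted p = 0.0106), and was called without S of 12 h (-1.23) or S of 24 h (-1.39). The 36 h value was lower than that of 12 h by -1.20 ± 0.24 (adjusted p = 0.000357; 9.97% of genes called), and was not called without library F of 12 h (-0.86) or when only the 6 libraries compared were in the fit (adjusted p = 0.165).

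In the libraries labelled dPOX01167 on AV, POX07277 went from 46.1, 67.8 and 60.2 CPM at 12 h to 135, 115 and 102 CPM at 36 h. Those of 36 h were the highest of the time course apart from dClrB library F on AV at 12 h. They exceeded their 12 h partners by a log2 fold change of 1.16 ± 0.24 (adjusted p = 0.000144; 28.1% of genes called) and Ku70 at 36 h by 1.48 ± 0.24 (adjusted p = 5.68e-06; 24.6% called). WA at 36 h was lower by -1.63 ± 0.24 (33.1 ± 3.4 CPM, adjusted p = 1.23e-06; 26.9% called). The time effect differed from that of Ku70 by 1.71 ± 0.33 (adjusted p = 0.000143; 25.1% called) and the medium effect at 36 h by -1.35 ± 0.33 (adjusted p = 0.00224; 19.8% called). POX01167 was present in all 3 of these 36 h libraries (95.6 to 207 CPM, against 157 to 1236 CPM in Ku70), so the values describe the libraries as labelled.

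POX02968 had the fewest calls of the 3. On WA in Ku70 it stood at 89.1, 92.0 and 87.8 CPM at 12 h, 63.4, 85.8 and 67.7 CPM at 24 h and 40.8, 64.2 and 47.1 CPM at 36 h. Its early libraries were the highest, and the log2 fold change to 36 h was -0.69 ± 0.25 (adjusted p = 0.0262), under the fold minimum. On AV at 12 h it held 57.4, 57.9 and 61.3 CPM, all below WA (WA against AV 0.71 ± 0.25, adjusted p = 0.02), and dClrB gave 50.5 ± 3.77 on AV against 76.4 ± 7.11 CPM on WA (0.66 ± 0.25, adjusted p = 0.0286). At 36 h in Ku70 the order of the means was the reverse, 72.3 ± 13.0 on AV and 50.7 ± 12.1 CPM on WA, with overlap (-0.30 ± 0.25, adjusted p = 0.429). This is the change of medium effect given above as an interaction of -1.02, which was not called without library 23, 27, 28, 30 or 35 (values from -0.998 to -0.89).

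In the libraries labelled dPOX01167 on AV POX02968 held 36.6, 128 and 86.3 CPM at 12 h and 95.6, 137 and 131 CPM at 36 h. Library F is the low one at 12 h, the one with 1603 CPM of POX01167. The log2 fold change from 12 to 36 h was 0.74 ± 0.25 (adjusted p = 0.0159), and it was called without library S of 12 h (1.15, adjusted p = 0.000813). Against Ku70 the 36 h libraries were higher without overlap (0.64 ± 0.25, adjusted p = 0.0398), and against their own WA partners WA was lower by -0.99 ± 0.25 (54.0 ± 3.14 CPM, adjusted p = 0.00167), both under the fold minimum. The latter passed it with DESeq2 (-1.02), limma (-1.12) and library totals (-1.16), and without AV library F (-1.19), WA library S (-1.02) or WA library T (-1.03).

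The lipid groups were read in the deep tables. In Ku70 with arachidonic acid oil, POX07277 stood at 32, 30.9 and 32.9 CPM, against 19.7, 25.2 and 30.3 CPM (lowest, median and highest of 12) on plain induction. The 3 oil libraries lay above all 12, by a log2 fold change of 0.48 ± 0.16 (adjusted p = 0.0342), a difference under the fold minimum. With the 24 Ku70 libraries of both kinds as control it was -0.11 (adjusted p = 0.89). The kinds differ in level, with POX07277 in Ku70 induced at a mean of 25.6 CPM in the deep and 45.4 CPM in the shallow tables. That value therefore mixes the lipid with the kind of table. Linolenic acid (21.6, 19.4 and 20.4 CPM) and oleic acid (26.1, 20.6 and 19.9 CPM) left POX07277 within the range of the induced libraries apart from 1 library just below it (log2 fold changes of -0.16 and 0.01, adjusted p = 0.507 and 0.978). Between oil and linolenic acid the ranges were separate (-0.64 ± 0.21 for linolenic acid), but the adjusted p was 0.17.

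POX04420 with the lipids in Ku70 was at 185, 108 and 124 CPM (oil), 175, 141 and 178 CPM (linolenic acid) and 121, 107 and 113 CPM (oleic acid), beside 81.9, 112 and 167 CPM (lowest, median, highest) on plain induction. All these ranges overlap that of plain induction, and no lipid was called. For POX02968 the Ku70 values were 77.3, 117 and 128 CPM, 97.9, 95.2 and 92.8 CPM, and 97.4, 79.4 and 78.2 CPM in the same order, within the 71.0 to 207 CPM of plain induction (median 133 CPM). The control libraries 11, 12 and 13, with 71.0, 75.3 and 71.1 CPM, set the low end of that range, and the other 9 ran from 112 to 207 CPM. Without them POX02968 was lower with linolenic acid (-0.57 ± 0.16, adjusted p = 0.00661) and oleic acid (-0.69 ± 0.16, adjusted p = 0.00116) than on plain induction, still under the fold minimum, where all 12 gave -0.33 and -0.44 (adjusted p = 0.276 and 0.12). Leaving out the lowest controls favours lower values for the lipids and is no separate support. With the 24 Ku70 libraries of both kinds as control the values were 0.02 and -0.10 (adjusted p = 0.976 and 0.868). These mix the lipids with the kind of table. POX02968 averaged 137 CPM in the deep and 63.2 CPM in the shallow Ku70 induced libraries. Without libraries 11, 12 and 13, POX04420 with linolenic acid went from 0.55 ± 0.24 (adjusted p = 0.0808) to 0.68 ± 0.21 (adjusted p = 0.0144). Those libraries averaged 155 CPM of POX04420, against 113 CPM in the other 9. Leaving them out favours a higher value and is no separate support.

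**Figure D3:**
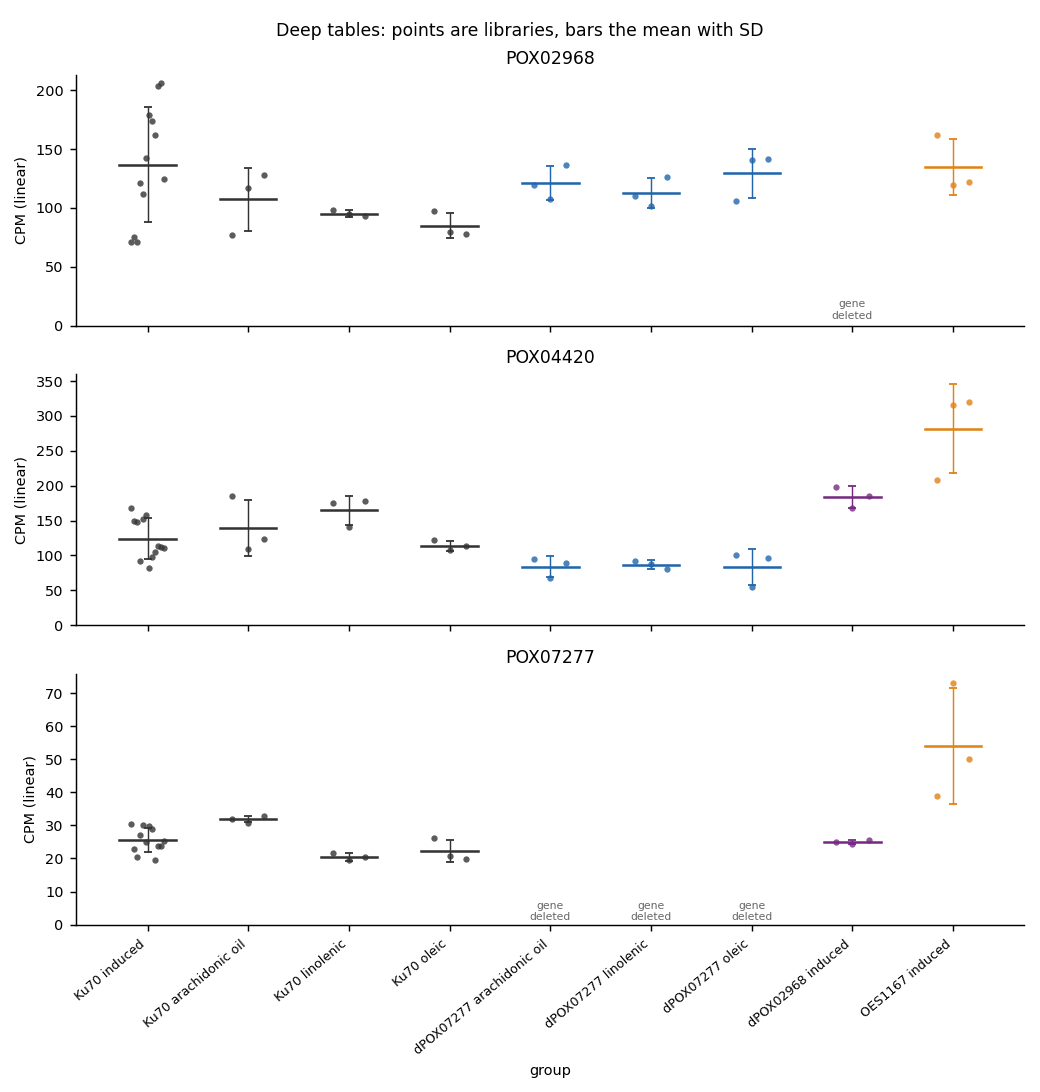
CPM of each gene (linear axis) in the 9 groups of the deep tables. Points are libraries, and bars show the mean with the SD over 12 (Ku70 induced) or 3 libraries. OES1167 is highest for POX04420 and POX07277 (means of 282 and 54.1 CPM), and the 3 dPOX07277 groups are lowest for POX04420 (83.4 to 86.6 CPM).

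With linolenic acid, POX04420 was lower in the strain without POX07277. On linolenic acid dPOX07277 held 92.3, 87.5 and 79.9 CPM of POX04420, below all 3 Ku70 libraries given above, at a log2 fold change of -1.03 ± 0.31 (adjusted p = 0.0165; 12.9% of genes called). With arachidonic acid oil it held 95, 67.8 and 89.3 CPM, again below every Ku70 library, but the value of -0.81 ± 0.31 had an adjusted p of 0.0599. On oleic acid it held 100, 54.2 and 95.7 CPM, separate from Ku70 in CPM, with a log2 fold change of -0.30 ± 0.31 (adjusted p = 0.414). Library F there, at 100 CPM, had a TMM factor of 0.753, against 0.906 to 0.987 in the other libraries with linolenic or oleic acid. The part of this in the result was not tested. The call on linolenic acid lies at the fold minimum: it was lost with DESeq2 (-0.92), limma (-0.92), 5 other settings and without Ku70 library 41 (-0.87) or 43 (-0.95) or dPOX07277 library F (-0.97) or T (-0.85). None of the 3 tests of 1 lipid's strain effect against another's was called by edgeR (lowest adjusted p = 0.233), DESeq2 or limma, with 0 at an unadjusted p under 0.05.

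POX02968 in dPOX07277 stood at 106, 141 and 142 CPM on oleic acid, above the 3 Ku70 libraries (0.68 ± 0.27, adjusted p = 0.0311, under the fold minimum). Library F, at 106 CPM, is again the one with the TMM factor of 0.753, and the part of this was not tested. On arachidonic acid oil (120, 108 and 137 CPM) and linolenic acid (110, 101 and 126 CPM) the differences from Ku70 were 0.09 ± 0.27 and 0.14 ± 0.27 (adjusted p = 0.851 and 0.75). In dPOX02968, POX04420 stood at 198, 168 and 186 CPM, above all 12 Ku70 induced libraries, by 0.60 ± 0.23 (adjusted p = 0.0538). Without libraries 11, 12 and 13 that value was 0.75 ± 0.21 (adjusted p = 0.00534), under the fold minimum. Those libraries averaged 155 CPM of POX04420, against 113 CPM in the other 9. Leaving them out therefore favours a higher value and is no separate support. POX07277 in dPOX02968 held 25.1, 24.5 and 25.7 CPM, in the middle of the controls (0.02 ± 0.16, adjusted p = 0.923).

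In OES1167, where POX01167 stood at 394 to 428 CPM against 118 to 342 CPM in the 12 deep Ku70 libraries, POX04420 and POX07277 were higher. POX04420 held 208, 316 and 321 CPM, above every one of the 12 control libraries, by a log2 fold change of 1.25 ± 0.23 (adjusted p = 0.000783). POX07277 held 38.8, 73.2 and 50.2 CPM, also above all 12, by 1.16 ± 0.15 (adjusted p = 5.56e-05). Calls were rare in this comparison, at 3.26% of genes. The 12 control libraries fall into closer sets, as given above, and may stand for fewer separate cultures. POX02968 (162, 120 and 122 CPM) lay inside the control range (0.09 ± 0.21, adjusted p = 0.835). The call of POX07277 was lost without OES1167 library S (0.87), with limma (0.97) and with the 24 Ku70 libraries of both kinds as control (0.62, adjusted p = 0.275), whereas that of POX04420 stayed in all settings run. With the control of both kinds, the strain and the kind of table cannot be told apart.

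In the shallow tables POX07277 was higher in dClrB on the inducing carbon source. Its dClrB libraries F, S and T held 164, 63.1 and 86.6 CPM, against 20.2, 37.8 and 88.0 CPM (lowest, median and highest of 12) in Ku70. The groups overlap, and the log2 fold change was 1.21 ± 0.36 (adjusted p = 0.0255; 11.2% of genes called). It was 1.42 ± 0.36 (adjusted p = 0.00734) without Ku70 libraries 8, 9 and 10. Those libraries averaged 66.9 CPM of POX07277, against 38.2 CPM in the other 9, so leaving them out favours a higher value. The log2 fold change was 0.48 (adjusted p = 0.543) without dClrB library F, so library F decides the call. With only these groups in the fit, adjusted p was 0.0586. POX04420 in dClrB (72.4, 235 and 188 CPM against 36.9, 80.2 and 158 CPM) and POX02968 (48.9, 72.9 and 66.4 CPM against 31.2, 53.2 and 113 CPM) overlapped Ku70 and were not called (0.76 ± 0.35 and -0.12 ± 0.28, adjusted p = 0.16 and 0.811).

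dPOX04420 held 30.2, 29.4 and 45.4 CPM of POX07277, within the Ku70 range (-0.59 ± 0.41, adjusted p = 0.455). It held 83.6, 111 and 88.8 CPM of POX02968, where the 3 Ku70 libraries 8, 9 and 10 stood at 113, 103 and 98.9 CPM and the other 9 at 31.2 to 69.7 CPM. With all 12 controls the difference was 0.36 ± 0.27 (adjusted p = 0.499). Without those 3 libraries it was 0.69 ± 0.17 (adjusted p = 0.00821), with every dPOX04420 library above the 9 controls, but still under the fold minimum. Those 3 libraries are the highest of the 12 controls. Leaving them out therefore favours a higher value and the separation, and is no separate support.

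**Figure D4:**
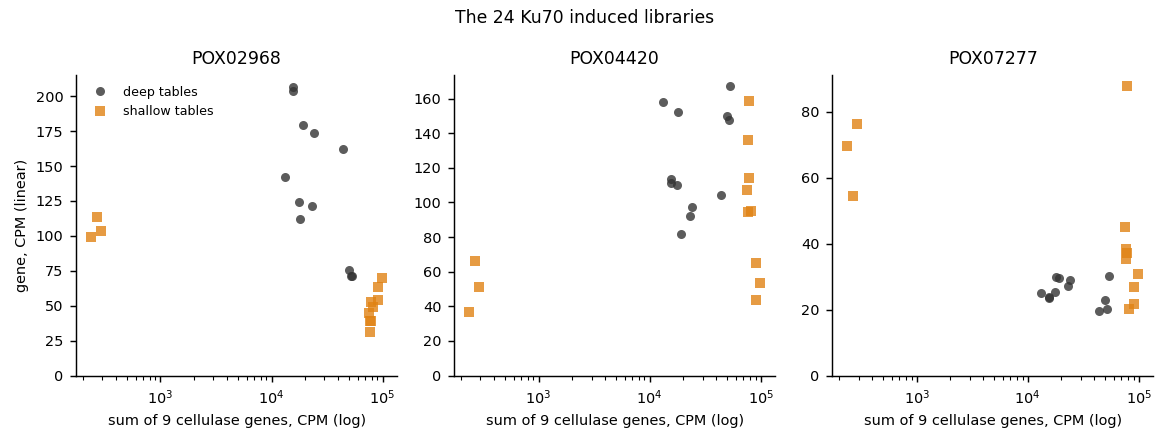
CPM of each gene (linear axis) against the summed CPM of 9 cellulase genes (log axis) in the 24 Ku70 induced libraries, 12 of the deep (circles) and 12 of the shallow tables (squares). Libraries 8, 9 and 10 stand alone at 236 to 290 CPM of cellulase genes, with 98.9 to 113 CPM of POX02968.

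Among cultures that were not transferred, POX04420 had its largest fold difference of the 49 comparisons. dPOX01167, in which POX01167 was at 0 in all 3 libraries, held 26.7, 25.9 and 23.7 CPM of POX04420, against 79.9, 120 and 112 CPM in dClrB. The groups were far apart, at a log2 fold change of -2.21 ± 0.50 (adjusted p = 0.00134), but 35.8% of genes were called in this comparison. POX02968 went the other way, at 176, 195 and 190 against 67.9, 85.1 and 76.9 CPM (1.10 ± 0.35, adjusted p = 0.0155), its only call, which was lost by the fold minimum without dPOX01167 library S (0.998, adjusted p = 0.0444). That library is the one with 206 CPM of cellulase genes, and the part of this in the result was not tested. POX07277 stood at 111, 110 and 111 CPM against 25.3, 44.9 and 57.5 CPM, separate ranges with 1.21 ± 0.50 (adjusted p = 0.0569), which DESeq2 called (1.24, adjusted p = 0.033), as did edgeR in the fit without Ku70 libraries 8 to 10 (1.21, adjusted p = 0.0409). No Ku70 culture without transfer was analysed here, so the values do not say which strain departs from the control.

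Within dClrB, POX07277 was lower in cultures that were not transferred than in induced ones, 25.3, 44.9 and 57.5 against 164, 63.1 and 86.6 CPM. The ranges were separate, with -1.56 ± 0.50 (adjusted p = 0.0372; 13.1% of genes called). Time (72 against 24 h) and transfer differ together here and cannot be told apart, and the call was lost without dClrB induced library F (-0.85) or any of the 3 libraries that were not transferred (adjusted p from 0.0553 to 0.153), and with limma (adjusted p = 0.079). POX04420 and POX02968 overlapped between these groups (-0.74 ± 0.47 and 0.16 ± 0.35, adjusted p = 0.293 and 0.794).

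**Figure D5:**
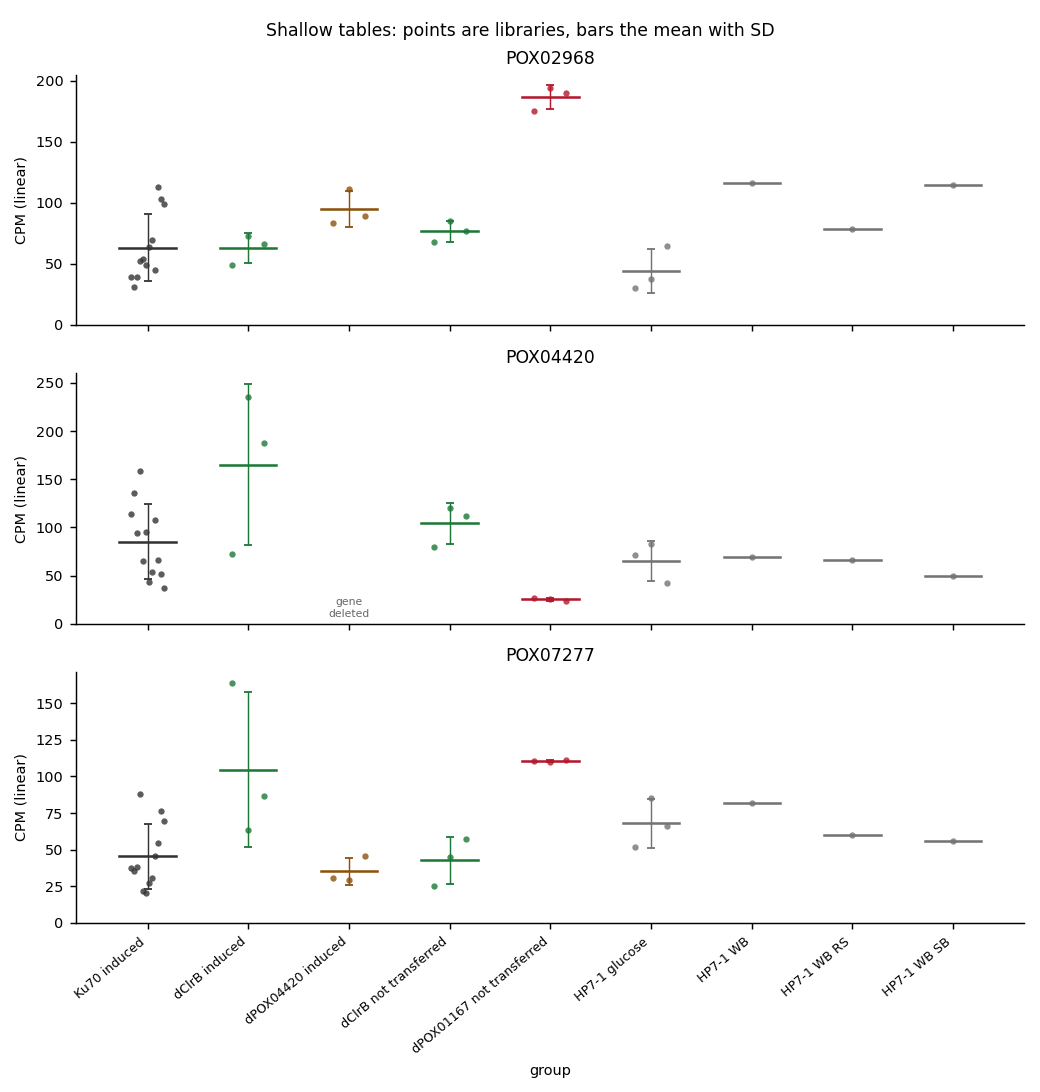
CPM of each gene (linear axis) in the 9 groups of the shallow tables. Points are libraries, and bars show the mean with the SD where a group has more than 1 library. dPOX01167 not transferred is highest for POX02968 (187 CPM) and POX07277 (111 CPM) and lowest for POX04420 (25.5 CPM).

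In the wild type HP7-1, POX02968 was at 30.1, 37.7 and 64.2 CPM on glucose and at 116, 78.7 and 114 CPM on wheat bran, wheat bran plus rice straw and wheat bran plus bagasse. These levels rest on few counts, 11, 15 and 58 on glucose and 82, 245 and 86 on the bran media. All bran values exceeded all glucose values, but the log2 fold change of 0.73 ± 0.31, with the 3 single media taken as 1 group, had an adjusted p of 0.112. Library totals in place of TMM scaling moved the median of all genes by 0.39 and gave 1.14 (adjusted p = 0.0198), and the value without glucose library T was 1.22 (adjusted p = 0.0192). POX04420 (71.1, 82.9 and 42.1 against 69.4, 66.5 and 49.1 CPM) and POX07277 (51.9, 85.4 and 66.4 against 82.2, 60.0 and 55.8 CPM) overlapped between glucose and bran media (-0.40 ± 0.29 and -0.44 ± 0.26, adjusted p = 0.342 and 0.244).

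The 9 cellulase genes and 4 xylanase genes were read in the strains that lack the 3 genes. Both lists were chosen with earlier results of these data known. The shares of all genes beside the counts belong to the main edgeR fits. None is given for the unadjusted p or for the other tools and settings, so those counts lack a measure of background. In dPOX02968, 4 of 9 cellulase genes and 1 of 4 xylanase genes were called higher than in Ku70 (4.06% of all genes) and 0 lower (6.39% of all genes), with median log2 fold changes of 1.15 and 1.47 against -0.01 over all genes tested. Examples are POX05571 (1.42 ± 0.44, adjusted p = 0.0183) and POX04786 (1.4 ± 0.46, adjusted p = 0.0244). By unadjusted p under 0.05 the counts were 5 and 3. DESeq2 called 4 and 1 higher and 0 lower, and limma 5 and 3 higher and 0 lower. Without Ku70 libraries 11, 12 and 13, all 4 xylanase genes and 6 cellulase genes were called higher. Those libraries stand apart by high sums of the same cellulase genes. Leaving them out therefore favours calls of higher and is no separate support.

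In dPOX04420, 2 of 9 cellulase genes and 1 of 4 xylanase genes were called lower (2.43% of all genes) and 0 higher (3.01%). The medians were -2.13 and -3.17, against -0.05 over all genes. Without Ku70 libraries 8, 9 and 10, whose cellulase sums are given above, all 9 and all 4 genes were called lower, with medians of -2.55 and -3.56. Those libraries stand apart by low sums of the same cellulase genes. Leaving them out therefore favours calls of lower and is no separate support. No share over all genes is given for the fit without them. Among the called genes POX07535 had the lowest log2 fold change, -5.68 ± 1.5 (adjusted p = 0.0232). No gene of either list was called higher with DESeq2 or limma either, and limma called none lower (2 and 1 at an unadjusted p under 0.05). With limma the cellulase median changed sign, to 0.21, while the xylanase median was -2.02.

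In dPOX07277 the lists were read on each lipid against Ku70, and differences between lipids were not tested. With arachidonic acid oil 1 cellulase gene was called higher (6.61% of all genes) and 1 cellulase and 2 xylanase genes lower (5.90%), with list medians of -1.34 and -2.32 (-0.10 over all genes). With oleic acid 1 cellulase gene was higher (18.3% of all genes) and 4 were lower (13.1%), with a median of -1.13 (0.0033 over all genes), and 0 xylanase genes were called by edgeR, DESeq2 or limma, with 0 at an unadjusted p under 0.05. With linolenic acid 1 cellulase gene was higher (7.14%) and 0 lower (5.74%), with a median of 0.0034 (-0.11 over all genes), and 0 xylanase genes were called by edgeR, DESeq2 or limma, with 0 at an unadjusted p under 0.05. The gene called higher was POX06835 on all 3 lipids, at 1.12 ± 0.27, 1.84 ± 0.28 and 1.57 ± 0.28 (adjusted p = 0.00331, 1.99e-05 and 4.78e-05). Counts from other tools and settings have no share over all genes beside them. DESeq2 called 4 cellulase genes and 3 xylanase genes lower with arachidonic acid oil. In a fit without Ku70 libraries 11, 12 and 13, 4 cellulase and 4 xylanase genes were called lower with arachidonic acid oil, and 1 xylanase gene was called higher with linolenic acid and 1 with oleic acid. Within these groups the cellulase sums were uneven. With linolenic acid it stood at 12549, 8182 and 40880 CPM in Ku70 libraries 41, 42 and 43 and at 25528, 24272 and 21562 CPM in dPOX07277 libraries F, S and T, inside the Ku70 range. With oleic acid it stood at 22125 to 27699.5 CPM in Ku70 and at 5612, 17210.1 and 7928 CPM in dPOX07277. The TMM factor of dPOX07277 library F with oleic acid was 0.753, against 0.906 to 0.987 in the other 11 libraries with these acids, and the part of this in the results was not tested.

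The levels of the 3 genes themselves were compared with the summed level of each list over group means, as a description, since groups share strains, media and tables. Over the 16 time-course groups Pearson's r on the log2 scale lay between -0.09 and 0.21 for every gene and list. Without the dPOX01167 groups it lay between -0.10 and 0.35 over 11 groups. Over the 9 groups of the deep tables POX04420 had r = 0.58 with the cellulase sum and 0.72 with the xylanase sum. There POX02968 had -0.14 and 0.12 over 8 groups, and POX07277 had 0.13 and 0.29 over 6. Among each other, POX02968 and POX04420 had r = -0.67 over the 16 groups, POX02968 and POX07277 0.64, and POX04420 and POX07277 -0.44. Without the dPOX01167 groups these were -0.63, 0.34 and -0.19 over 11 groups. In the deep tables POX02968 and POX04420 had r = -0.08 over 8 groups, POX02968 and POX07277 0.74 over 5, and POX04420 and POX07277 0.72 over 6, so the last pair had the opposite sign there.

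The genes with the most similar course over the 16 time-course group means, among genes of at least 5 CPM, were named by rank of Pearson's r of log2 values. For POX02968 they were POX05170 (0.97), POX09537 (0.97), POX04180 (0.96), POX04120 (0.95) and POX02730 (0.95), and the most opposed were POX06682 (-0.96), POX05968 (-0.96) and POX05451 (-0.96). In the deep tables POX05170 kept an r of 0.95 over 8 groups and POX05451 one of -0.91, while POX04180 had -0.32. For POX04420 they were POX01717 (0.90), POX04764 (0.90), POX01558 (0.89), POX07619 (0.88) and POX00448 (0.88), and the most opposed were POX04261 (-0.88), POX01147 (-0.88) and POX05421 (-0.86). POX07619 had 0.80 and POX01558 -0.35 over the 9 groups of the deep tables. For POX07277 they were POX03340 (0.93), POX08888 (0.91), POX04772 (0.90), POX06665 (0.90) and POX00231 (0.90), and the most opposed were POX04765 (-0.90), POX06353 (-0.89) and POX03865 (-0.89). POX04772 had 0.83 over 6 groups of the deep tables and POX06665 -0.07. An r above 0.9 was reached by 132 of 7345 genes for POX02968, by 1 for POX04420 and by 4 for POX07277, and the FPKM scale kept 1, 3 and 3 of the 5 most similar genes. Without the dPOX01167 groups 2, 2 and 1 of the 5 were kept.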

How the data were processed

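Per the labels' protocols, TRIzol was used on mycelium to obtain total RNA. For each library the authors deposited a table of expected counts (estimated reads per gene, which need not be whole) and FPKM values, per the file headers. In 4 tables of dPOX07277 the authors also gave TPM values and lengths, per the file headers. TPM was not used. The submitters' processing notes name RSEM 1.2.12, Bowtie2 2.1.0, DESeq2 and BWA 0.7.10-r789. Their roles, the genome build, strand and the handling of reads shared by similar genes are not given in the sources used here.

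CPM is the expected count scaled to a library total of 1e+06. A gene missing from a table was taken as 0. Kinds of table were told apart by the share of whole counts (under 90% in the time course) and the total (over 10000000 in deep tables). Rounded counts were tested with edgeR 4.0.16 (R 4.3.3; TMM, genes averaging 1 CPM or more, group as the only term, two-sided, adjusted over all genes) in 4 fits: time course, deep, shallow without HP7-1, and HP7-1. DESeq2 1.42.0 and limma 3.58.1 with log2(FPKM + 1) were alternatives, with other scalings, filters, controls and left-out libraries. All library pairs within groups exceeded counting noise, least in Ku70 induced 20 and 21 (chi-square per degree of freedom 1.94), and all were kept. The next-closest pair of the deep tables, OES1167 S and T, was at 12.4. The labels do not say whether 20 and 21 are repeats of 1 sample, and the fit took them as separate. In the time course, libraries of the same quantification set (letters F, S and T, found from FPKM per count for Ku70) deviated from their group means together, with correlations of at least 0.46 in 360 of 360 pairs, so they count as paired. The SE and p-values of the time course leave this pairing out, except where the replicate block is named. What that block changed is given in the last section. Letters in the other tables did not pair libraries (2 of 45 and 10 of 30 correlations over 0.1). The genes, lists and tests were chosen with earlier results of these data known. The genes named besides the 3 follow a rule: 5 most and 3 least similar courses, ID neighbours, and list members.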

Additional observations from a re-analysis of the deposited data

Results flagged for a closer look

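5 differences between effects under the same contrast passed the interaction test in edgeR, each on the log2 scale. In Ku70 the difference between WA and AV changed from 12 to 36 h by 2.61 for POX04420 and by -1.02 for POX02968. The libraries labelled dPOX01167 differed from Ku70 in the effect of WA against AV by 2.38 for POX04420 at 12 h and by -1.35 for POX07277 at 36 h. They also differed from Ku70 in the change from 12 to 36 h on AV, by 1.71 for POX07277. The last 3 rest on AV libraries in which POX01167 was found in 5 of 6, and its part in these results was not tested.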

How the results depend on the processing

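POX04420 was called in 11 to 16 comparisons under every alternative run, and in 12 to 16 when 1 library was left out. POX07277 was called in 6 to 10, in 8 to 10 when 1 library was left out, and in 15 by adjusted p alone. POX02968 was called in 1 comparison, and in 2 with DESeq2 size factors, no filter on low counts, DESeq2, only the groups compared or the replicate block, in 3 with library totals or limma, in 8 by adjusted p alone, and in 0 to 3 when 1 library was left out. No called value changed sign. The replicate block, apart from the value given for dClrB on WA, changed 3 calls in the shallow tables, where letters did not pair libraries and it was fitted with lettered libraries alone (1F, 1S and 1T of Ku70), so that the block and the smaller control cannot be told apart: POX02968 in dPOX04420 (1.08, adjusted p = 0.00229, edgeR) and POX07277 in dPOX01167 against dClrB (1.23, adjusted p = 0.025) were gained, and POX07277 in dClrB against Ku70 (1.38, adjusted p = 0.0516) was lost. It changed no other call for which it could be fitted, which leaves out the deep tables' comparisons with Ku70. For POX07277, limma put dClrB on WA at 24 h (-0.96) and 36 h (-0.96) and the rise labelled dPOX01167 on AV (0.98) under the fold minimum. For POX04420 in Ku70 on WA from 12 to 24 h, no filter gave 0.98. The fits without Ku70 libraries 8 to 10 and 11 to 13 were chosen after seeing the data. The cause of these changes was not tested. Depth differs between the kinds of table, and the shallow tables, down to 365937 counts, limit the comparisons made in them.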
